A study of Bos taurus with 6 samples.

Results

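The 10 genes described here encode regulators of mitochondrial biogenesis, receptors of the PPAR family and a mitochondrial carrier: PPARGC1A, PPARGC1B, PPARA, PPARD, ESRRA, NRF1, GABPA, TFAM, TFB2M and UCP2. They were taken by gene symbol from a table of 17663 genes, and all 10 were found there. All 10 also had enough counts to be among the 13482 genes tested. The question was whether these upstream genes were lower in fat-1 transgenic cells, where most nuclear genes of the respiratory chain were lower.

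As background, most subunits of the respiratory chain are encoded in the nucleus, and a small set of transcription factors and coactivators controls many of their genes. The coactivators PGC-1α and PGC-1β do not bind DNA themselves. They bind to nuclear receptors such as ERRα and the PPARs and to nuclear factors such as NRF1, and the GA-binding protein GABP acts on many of the same promoters. These factors also drive the genes of TFAM and TFB2M, the proteins that start transcription of mitochondrial DNA, so that both genomes can be expressed together. PPARs respond to fatty acids, n-3 PUFA among them, and switch on genes of fatty acid uptake and oxidation.

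RNA was measured in bovine fetal fibroblasts (bEFs), the cells that build connective tissue, grown in primary culture from fetuses of 50–60 days after the head, limbs, organs and bones had been taken away. FT cells came from 3 fetuses that were fat-1 transgenic, carrying a gene from a nematode for an enzyme that turns n-6 PUFA into n-3 PUFA. The WT group was made of cells from 3 fetuses of Luxi cattle without the transgene, and 1 poly(A) library was sequenced from every fetus, 3 per group, named FT_1, FT_2, FT_3, WT_1, WT_2 and WT_3. The breed of the FT fetuses, the promoter of the transgene and whether the FT fetuses shared a founder or a cell clone were not given in the sources used here. Total counts were 63366834, 48167642 and 54204446 in FT_1, FT_2 and FT_3 and 69777641, 51310741 and 54271927 in WT_1, WT_2 and WT_3.

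FT_1 stood apart from the other libraries. Pairs of libraries were compared by their biological coefficient of variation, which leaves out the spread that counting itself brings. For FT_1 it was 56.9% against FT_2 and 57.6% against FT_3. FT_2 differed from FT_3 by only 8.23%, and pairs of WT libraries by 9.99–13.4%. Results are therefore given with all 6 libraries, and counts of called genes also without FT_1 where they differed.

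Markers of the labelled cell type were abundant in every library. The FPKM (fragment counts scaled for gene length and library total) of 10 fibroblast markers summed to 17144 in FT_2, 16882 in FT_3 and 17459–18037 in the WT libraries, but to 6935 in FT_1. VIM had the highest mean over the 6 libraries, though DCN was above it in FT_1 (1803.48 against 1243.94) and FT_2 (4091.78 against 3850.19), and none of the 10 was at 0. A marker said below to lead its list is likewise the one with the highest mean over the 6 libraries. The 7 epithelial markers, led by KRT5, summed to 435.54 in FT_1, 16.12 in FT_2, 15.76 in FT_3 and 7.92–14.19 in WT, so that FT_1 was far above the others and FT_2 and FT_3 were also above WT. EPCAM, KRT8, KRT18, KRT5 and KRT14 had no count in any WT library, and EPCAM had none in FT_2 and FT_3. The 4 mesothelial markers, led by MSLN, summed to 205.94 in FT_1, 45.1 in FT_2, 46.27 in FT_3 and 2.35–3.48 in WT, with the same order of FT_1, the other FT libraries and WT, and WT1 had no count in FT cells.

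Other markers separated the groups without FT_1 standing far apart. The 6 smooth muscle markers, led by ACTA2, summed to 2516–3815 in FT and 1088–1216 in WT libraries. The 6 adipocyte markers summed to 3.62–7.89 in FT and 134.17–148.6 in WT, most of the WT sums from FABP4, and ADIPOQ was at 0 in FT. The 6 markers of cycling cells, led by CCNB1, summed to 54.23–86.14 in FT and 233.25–288.71 in WT. The remaining lists were low, and 3 of them also separated the groups. Summed FPKM of skeletal muscle markers (led by DES, with ACTA1 at 0 in WT) was 3.82–5.8 in FT and 1.16–1.93 in WT. For blood and macrophage markers (led by CD14) it was 3.57–4.25 in FT and 6.74–8.07 in WT, and for neural markers (led by TUBB3, with NEFL at 0 in FT) it was 1.28–2.03 and 2.79–3.74. The sums of endothelial markers (led by PECAM1, with KDR at 0 in FT) were 0.47–1.03 in FT and 1–1.52 in WT. The sums of cartilage markers (led by SOX9, with COL2A1 at 0 in WT and MATN1 at 0 in FT) were 0.31–2.29 in FT and 0.84–1.06 in WT.

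A gene was called when its Benjamini-Hochberg adjusted p from edgeR's quasi-likelihood test, over all 13482 genes, was under 0.05. With all 6 libraries 20.1% of all tested genes were called higher in FT and 18.9% lower, and without FT_1 30.6% and 31.5%. Leaving out FT_2, FT_3, WT_1, WT_2 or WT_3 instead gave at most 15.6% higher and 11.1–14.4% lower, so counts of called markers from these fits stand beside smaller shares. Beside these shares, the markers called higher were 1 of 6 tested epithelial (5 without FT_1), 5 of 6 smooth muscle (6 without FT_1), 1 of 2 mesothelial and 1 of 2 skeletal muscle markers. Without FT_1, 1 skeletal muscle marker was also called lower. Of the 10 fibroblast markers, 1 was called higher and 1 lower (5 and 2 without FT_1). Without FT_1, the mesothelial call was MSLN alone, UPK3B and the epithelial marker CDH1 were not called, and these 3 were named after their values were seen. The markers called lower were 2 of 5 adipocyte (3 without FT_1, 1 without FT_2, WT_1, WT_2 or WT_3) and 5 of 6 cycling cell markers (6 without FT_1, 3 without WT_2 or WT_3). They were also 1 of 3 blood and macrophage markers (2 of 4 without FT_1), 1 of 2 cartilage markers and the 1 neural marker tested. In edgeR the blood and macrophage count was 0 without FT_2, WT_1, WT_2 or WT_3 (with all libraries 2 at an unadjusted p under 0.05 and 1 by DESeq2). The cartilage count was 0 without the same 4 libraries (with all libraries 1 at an unadjusted p and 1 by DESeq2). The neural count was 0 without any 1 library other than FT_1 (with all libraries 1 at an unadjusted p and 1 by DESeq2). None of 3 tested endothelial markers was called by edgeR, DESeq2 or limma, 0 had an unadjusted p under 0.05, and 1 of 4 was called lower without FT_1. These are bulk libraries, so fewer cells of a type and less RNA per cell cannot be told apart, and the part of cell makeup or cell cycling in the results that follow was not tested.

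**Figure D1:**
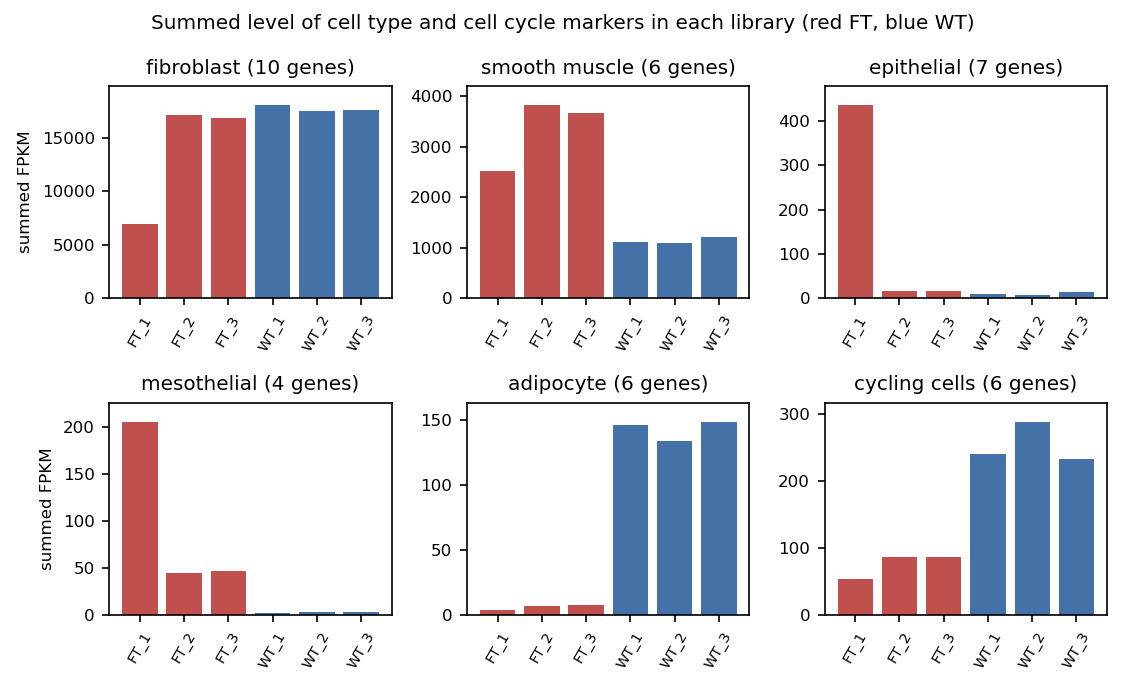
Summed FPKM of 6 marker lists in each library, as bars that start at 0 (FT red, WT blue). FT_1 had the lowest fibroblast sum (6935) and the highest epithelial (435.54) and mesothelial (205.94) sums, while adipocyte and cycling cell sums were lower in all 3 FT libraries than in all 3 WT libraries.

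The 10 genes did not move in 1 direction. PPARD was called higher in FT cells, while ESRRA, GABPA, TFB2M and UCP2 were called lower. PPARGC1A, PPARGC1B, PPARA, NRF1 and TFAM were not called. That is 1 higher and 4 lower of 10, beside 39.0% of all tested genes called, 20.1% higher and 18.9% lower. FT and WT values, as counts scaled to a common library size (CPM) scaled by TMM, did not overlap for 7 of the 10, beside 57.7% of all tested genes. The median log2 fold change of the 10 genes was -0.02, and that of all tested genes was 0.03. Without FT_1, 3 were called higher and 4 lower, beside 62.1% of all genes called, 30.6% higher and 31.5% lower. The number called lower was 2 without FT_2, FT_3 or WT_1 and 1 without WT_2 or WT_3, beside 11.1–14.4% of all tested genes called lower in these 5 fits, while PPARD was called higher in each of these fits.

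The 10 genes differed widely in level. On the FPKM scale, which allows genes to be compared per length, the mean over the 6 libraries fell from 19.4 for GABPA through 12.7 for TFB2M, 9.61 for PPARD, 8.67 for TFAM, 8.47 for ESRRA and 7.32 for UCP2. Below a gap came 2.86 for PPARA, 2.57 for NRF1, 1.51 for PPARGC1A and 0.68 for PPARGC1B. The median mean FPKM of all tested genes was 7.71. UCP2 and PPARA were the only neighbours in this order whose ranges over the 6 libraries did not overlap, so the coactivator genes and PPARA and NRF1 formed a low group and the other 6 genes a middle group. PPARGC1A overlapped PPARGC1B only through its 0.01 in FT_1. In the other 5 libraries PPARGC1A had 1.45–2.18, above the 0.45–0.85 of PPARGC1B.

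**Figure D2:**
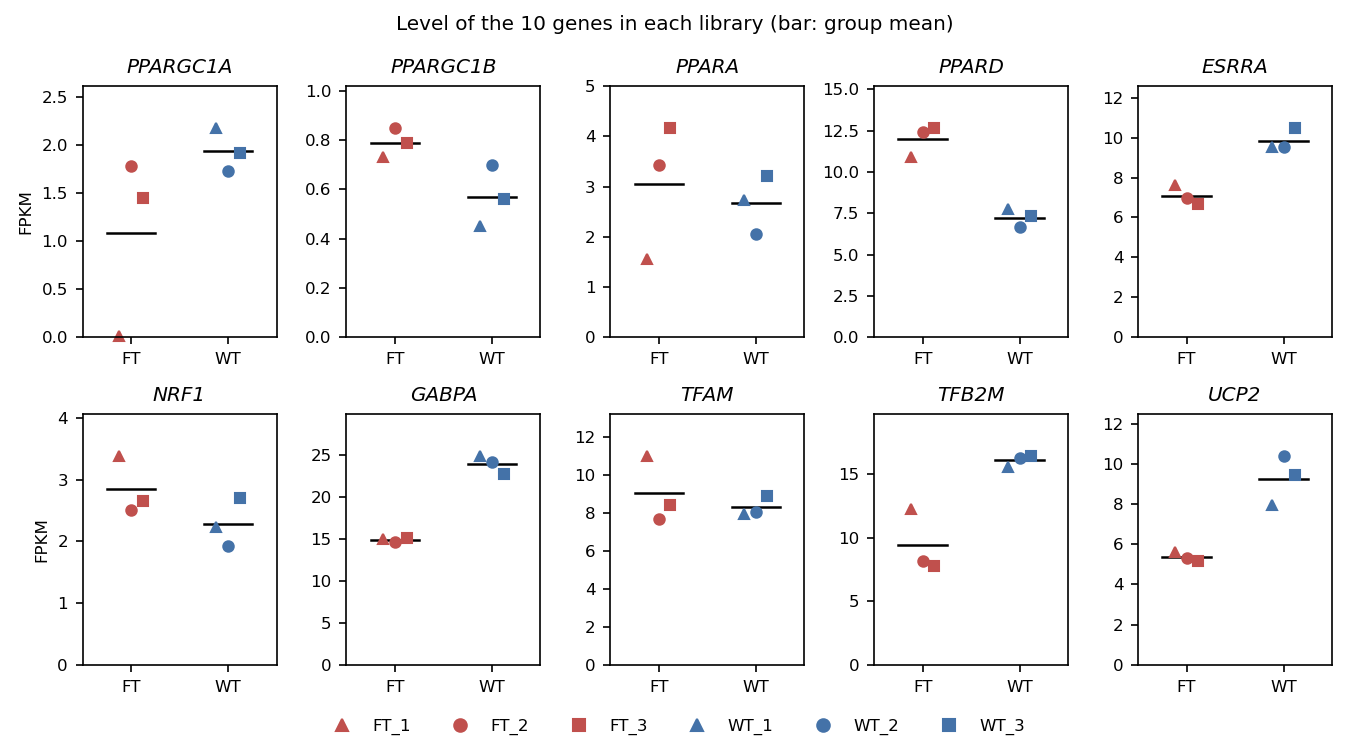
FPKM of each of the 10 genes in the 6 libraries (FT red, WT blue; triangle, circle and square are replicates 1, 2 and 3; the bar is the group mean; each axis starts at 0). PPARD was higher in every FT library, ESRRA, GABPA, TFB2M and UCP2 were lower in every FT library, and PPARGC1A was at 0.01 in FT_1 alone.

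PPARGC1A (ENSBTAG00000017024, chromosome 6, 43380463 to 43487411 in the authors' coordinates, whose build is not named) encodes PGC-1α. Its FPKM was 0.01, 1.78 and 1.45 in FT_1, FT_2 and FT_3 and 2.18, 1.73 and 1.92 in WT_1, WT_2 and WT_3. The gene was nearly absent from FT_1, and the other 2 FT libraries lay close to the WT libraries. FT_1 held 4 counts where the other libraries held 534 to 1028. Scaled for library size, the other libraries were between 161-fold higher (95% exact binomial interval 62.7 to 595, counting error only, FT_3) and 214-fold higher (83.2 to 786, WT_1) than FT_1. The fitted log2 fold change of FT against WT was -0.68 with a standard error of 1.26 (edgeR, adjusted p = 0.701). Without FT_1 it was -0.10 (95% confidence interval -0.41 to 0.21, adjusted p = 0.556), so that FT_2 and FT_3 showed no difference from WT beyond the spread between libraries. The gap between FT_1 and the mean of FT_2 and FT_3, on the log2 CPM scale, was -6.86, larger than the gap of 99.5% of tested genes.

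PPARGC1B (ENSBTAG00000012943, chromosome 7, 61073587 to 61186881) encodes PGC-1β and was the lowest of the 10 genes. Its FPKM was 0.73, 0.85 and 0.79 in FT_1 to FT_3 and 0.45, 0.70 and 0.56 in WT_1 to WT_3. All FT values lay above all WT values, yet the gene was not called (log2 fold change 0.61, standard error 0.25, edgeR adjusted p = 0.102). It was called without FT_1 (0.68, adjusted p = 0.0409) and in no fit that left out another library. PPRC1, which encodes another coactivator of this family, was outside the 10 genes but in the list of receptors and partners. Its FPKM was 17.33, 12.91 and 13.71 in FT cells and 7.32, 7.52 and 7.55 in WT libraries. The fitted log2 fold change was 1.13 (edgeR adjusted p = 0.00153), and the gene was called whichever library was left out.

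Of the nuclear receptors, PPARD rose and ESRRA fell. PPARD (ENSBTAG00000017542, chromosome 23, 9304237 to 9389925), the PPAR found in most tissues, had an FPKM of 10.89, 12.43 and 12.66 in FT_1, FT_2 and FT_3 and 7.74, 6.64 and 7.32 in WT_1, WT_2 and WT_3. Every FT library was above every WT library. Its log2 fold change was 0.89 (95% confidence interval 0.63 to 1.15, n = 3 per group, standard error 0.11, edgeR adjusted p = 0.00225), which is 1.85-fold. It was called whichever library was left out, with an adjusted p of at most 0.0152. RUNX1, APP and PIAS1 had the library values most like those of PPARD over the 6 libraries, with root mean square differences of 0.052, 0.052 and 0.057 in centred log2 CPM.

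PPARA (ENSBTAG00000008063, chromosome 5, 116438987 to 116507065), the main PPAR of liver and other tissues that burn fatty acids, had an FPKM of 1.55, 3.44 and 4.17 in FT_1, FT_2 and FT_3. The WT values were 2.73, 2.05 and 3.22. FT_1 was the lowest of the 6 libraries while FT_2 and FT_3 were the highest, so the groups overlapped. The log2 fold change was 0.36 (standard error 0.40, edgeR adjusted p = 0.505), and the gene was called only without FT_1 (0.68, standard error 0.19, adjusted p = 0.00937).

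ESRRA (ENSBTAG00000008645, chromosome 29, 42603429 to 42612003) encodes ERRα, an orphan receptor that binds to promoters of many respiratory chain genes. Its FPKM was 7.61, 6.99 and 6.68 in FT_1 to FT_3 and 9.53, 9.54 and 10.49 in WT_1 to WT_3, with no overlap between groups. The fall was small, -0.32 on the log2 scale (95% confidence interval -0.53 to -0.10, edgeR adjusted p = 0.0349). The call was lost without FT_2, FT_3, WT_1, WT_2 or WT_3, with an adjusted p between 0.0777 and 0.110, and kept without FT_1 (-0.36, adjusted p = 0.00807). ESRRA overlaps TRMT112 on the opposite strand by 247 bases in the authors' table, and whether counting used the strand was not stated. TRMT112 fell as well (log2 fold change -0.63, edgeR adjusted p = 0.00886), so the reads of this pair may not be told apart where they overlap.

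Of the nuclear factors, GABPA was called lower and NRF1 was not called, and the difference between the 2 genes was not tested. GABPA (ENSBTAG00000019043, chromosome 1, 10656634 to 10691694), the DNA-binding subunit of GABP (also called NRF-2), had an FPKM of 14.97, 14.61 and 15.16 in FT_1, FT_2 and FT_3. In WT_1, WT_2 and WT_3 it was 24.97, 24.24 and 22.72. The 3 FT values lay close together and well below the WT values, FT_1 included, with means of 14.9 ± 0.279 in FT and 24.0 ± 1.15 in WT (SD, n = 3). GABPA fell by 0.53 on the log2 scale (95% confidence interval -0.71 to -0.34, standard error 0.075, edgeR adjusted p = 0.00361). It was called whichever library was left out, with an adjusted p of at most 0.0254. Its annotated span shares 1001 bases with ATP5PF on the opposite strand, a gene of ATP synthase with 66.62–74.79 FPKM in FT and 89.43–113.36 in WT (log2 fold change -0.38, edgeR adjusted p = 0.0393). The ATP5PF call was lost without FT_2, FT_3, WT_1 or WT_2, with an adjusted p of up to 0.124. ATP5PF had 3811–7658 counts over the 6 libraries, above the 1416–3490 of GABPA. Whether counting used the strand was not stated, so the reads of this pair may not be told apart where they overlap. How much this overlap adds to the GABPA values was not tested. The genes of the partner subunits, GABPB1 (3.82–5.73 FPKM over the 6 libraries) and GABPB2 (1.97–2.89), were not called (edgeR adjusted p = 0.0716 and 0.689).

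NRF1 (ENSBTAG00000014273, chromosome 4, 93449966 to 93576616) had an FPKM of 3.39, 2.51 and 2.66 in FT_1 to FT_3 and 2.23, 1.93 and 2.70 in WT_1 to WT_3. WT_3 was above FT_2 and FT_3 on this scale, though after TMM scaling all FT values were above all WT values. The log2 fold change of 0.48 (95% confidence interval 0.00 to 0.96, standard error 0.20) was not called (edgeR adjusted p = 0.101), and it was not called in any fit that left out 1 library.

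Of the factors that start transcription of mitochondrial DNA, TFB2M was called lower and TFAM was not called, and the difference between them was not tested. TFAM (ENSBTAG00000003546, chromosome 28, 45677709 to 45689736), which packs mitochondrial DNA and bends its promoters, had an FPKM of 11.02, 7.67 and 8.42 in FT_1, FT_2 and FT_3. In WT cells it was 7.96, 8.03 and 8.90. On this scale FT_1 was the highest library, FT_2 was the lowest and FT_3 lay among the WT values. After TMM scaling FT_1 (14.7 CPM) and FT_3 (11.6) were above all WT values (9.65, 9.75 and 10.8). FT_2 (10.4) lay among the WT values there, so the groups overlapped on both scales. The log2 fold change was 0.28 (standard error 0.16, edgeR adjusted p = 0.216), or 0.13 without FT_1 (95% confidence interval -0.14 to 0.40, adjusted p = 0.371).

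TFB2M (ENSBTAG00000000072, chromosome 16, 30802001 to 30820756), which opens the promoter for the mitochondrial RNA polymerase, had an FPKM of 12.21, 8.19 and 7.78 in FT_1, FT_2 and FT_3. The WT values were 15.53, 16.27 and 16.43. FT_1 lay above FT_2 and FT_3 and below the WT libraries, and the groups did not overlap. TFB2M fell by 0.62 on the log2 scale (95% confidence interval -1.05 to -0.19, edgeR adjusted p = 0.0352). Without FT_1 the value was -0.84 (standard error 0.087, adjusted p = 2.3e-05), while without FT_2, FT_3, WT_1, WT_2 or WT_3 the call was lost (adjusted p 0.0916 to 0.105). TFB2M overlaps CNST on the opposite strand by 133 bases, and CNST was higher in FT cells (log2 fold change 0.83, edgeR adjusted p = 0.0114; 0.0531 without WT_1).

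UCP2 (ENSBTAG00000003692, chromosome 15, 53409782 to 53416245) encodes a carrier of the inner mitochondrial membrane and is the only gene of the 10 that does not act on transcription. Its FPKM was 5.61, 5.33 and 5.18 in FT_1 to FT_3 and 7.95, 10.41 and 9.43 in WT_1 to WT_3. The FT libraries hardly differed among themselves and were all below the WT libraries, with means of 5.37 ± 0.218 in FT and 9.26 ± 1.24 in WT (SD, n = 3). UCP2 fell by 0.63 on the log2 scale (95% confidence interval -0.96 to -0.29, standard error 0.14, edgeR adjusted p = 0.0147), a value close to that of TFB2M. The call was lost without WT_2 (adjusted p = 0.0575) or WT_3 (0.0567). The genes most like UCP2 over the 6 libraries were APIP, SNAPC5 and ADSL, with root mean square differences of 0.032, 0.045 and 0.057 in centred log2 CPM.

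An exact permutation test on log2(FPKM + 1), two-sided, cannot give a p under 0.10 with 3 libraries against 3. It gave 0.10 for PPARGC1B, PPARD, ESRRA, GABPA, TFB2M and UCP2, and 0.2 to 0.8 for the other 4 genes.

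**Figure D3:**
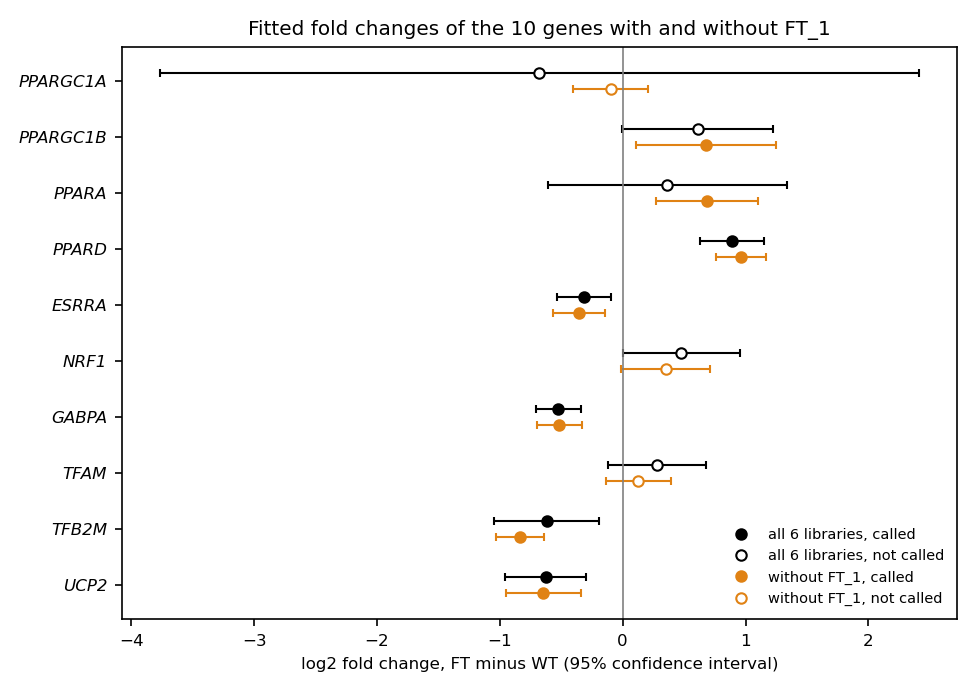
Fitted log2 fold change (FT minus WT) of each of the 10 genes with its 95% confidence interval, from all 6 libraries (black) and without FT_1 (orange); filled points were called and open points were not. The interval of PPARGC1A runs from -3.77 to 2.41 with FT_1 and from -0.41 to 0.21 without it, while PPARD, ESRRA, GABPA, TFB2M and UCP2 were called in both fits.

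The annotations in the table gave further shared features. The 10 genes lie on 10 chromosomes, so none is a neighbour of another. TFAM and TFB2M are the only 2 genes of the table with the GO term for transcription initiation from the mitochondrial promoter. PPARGC1A, NRF1 and TFAM share the KEGG apelin signaling pathway (116 genes of the table) and the KEGG Huntington disease pathway (169 genes). None of these 3 was called, beside 39.0% of all tested genes called. PPARA and PPARD share the KEGG PPAR signaling pathway (58 genes).

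Most nuclear respiratory chain genes were called lower. Of 73 subunit genes in the table, all tested, 56 were called lower in FT cells and 0 higher by edgeR, beside 18.9% and 20.1% of all tested genes. At an unadjusted p under 0.05 edgeR gave 59 lower and 1 higher, and DESeq2 gave 56 and 0 at an adjusted p under 0.05. The median log2 fold change was -0.79, and 71 of the 73 values were negative, beside 48.2% of all tested genes. By complex, 27 of 35 genes were called lower for complex I (median log2 fold change -0.65), 3 of 4 for complex II (-0.90), 8 of 10 for complex III with cytochrome c (-1.15), 4 of 9 for complex IV (-0.44) and 14 of 15 for complex V (-0.94). Without FT_1, 60 were called lower and 1, NDUFV3, higher, beside 31.5% and 30.6% of all tested genes, and NDUFV3 was also called higher without WT_2. Summed FPKM of the list was 3875, 4108 and 3876 in FT_1, FT_2 and FT_3 and 7403, 8177 and 7185 in WT_1, WT_2 and WT_3, so FT_1 did not stand apart on this measure. The subunits encoded by mitochondrial DNA were not analysed here.

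The gene called lower with the smallest p in each complex is given as an example, and it does not stand for the size of the differences in its complex. NDUFB3 of complex I had an FPKM of 29.87, 29.59 and 27.82 in FT and 119.38, 122.55 and 109.23 in WT libraries (log2 fold change -1.85, standard error 0.082, edgeR adjusted p = 5.23e-04). ATP5PB, of the stalk of ATP synthase, had 62.14, 64.48 and 64.08 in FT and 186.1, 201.97 and 176.49 in WT (log2 fold change -1.41, standard error 0.084). SDHD, a membrane anchor of complex II, had 40.61–42.39 in FT and 93.78–110.03 in WT (-1.13 on the log2 scale). These 3 falls were larger than any fall called among the 10 regulators with all 6 libraries. UQCR11 of complex III had 37.14–44.47 FPKM in FT and 103.98–104.79 in WT (log2 fold change -1.19), and NDUFA4 of complex IV had 63.13–70.13 and 136.39–144.41 (log2 fold change -0.92). All 5 were called whichever library was left out, with an adjusted p of at most 0.0106.

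The count of respiratory chain genes called depended in part on whether a trend on gene length was removed. Log2 fold changes rose with relative length, which was taken from the ratio of count to FPKM, across 13482 genes (Spearman's rho 0.169, over genes that are not independent replicates). The respiratory chain genes were short, with a median relative length of 61.0 against 136 for all tested genes, and the 10 regulators had 150.2. The trend was removed in limma on log2 CPM, which was therefore also run without that step, and both fits were chosen after seeing the data. With no trend removed, limma called 56 of the 73 lower and 0 higher, with a median of -0.78. With the trend removed it called 48 lower and 1 higher, with a median of -0.58. The 10 regulators gave 1 higher and 4 lower in both fits. Of all tested genes, 20.2% were called higher and 20.3% lower with no trend removed, and 19.8% and 20.4% with it removed.

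**Figure D4:**
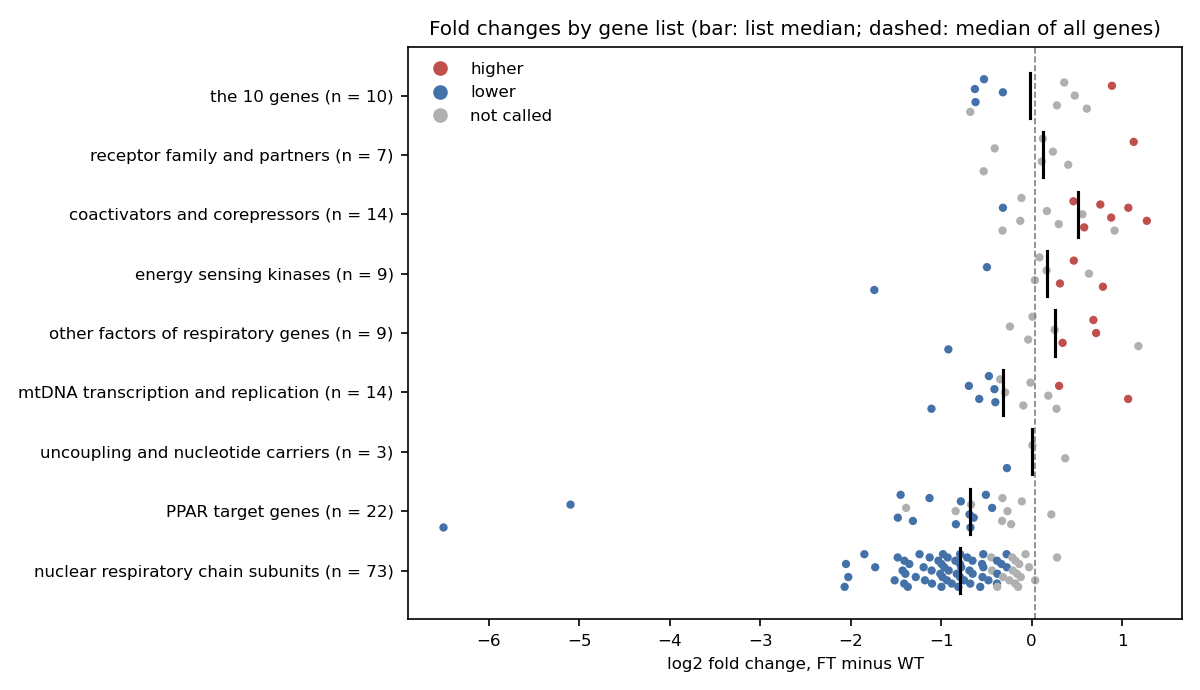
Log2 fold change (FT minus WT) of each tested gene in 9 gene lists; red was called higher, blue lower and grey not called, the black bar is the list's median and the dashed line the median of all tested genes (0.03). The 10 genes lie on both sides of 0 while 71 of the 73 respiratory chain genes lie below it.

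Of 22 genes in the table that PPARs are known to switch on, 13 were called lower and 0 higher by edgeR, beside 18.9% and 20.1% of all tested genes, and 9 were not called. The counts were, at an unadjusted p 16 and 0, and DESeq2 gave 14 and 0. The median log2 fold change was -0.68. CPT2, an enzyme of fatty acid import into mitochondria, had an FPKM of 19.52, 21.93 and 21.52 in FT and 66.11, 61.45 and 68.49 in WT. Its log2 fold change was -1.48 (edgeR adjusted p = 5.32e-04). Among the others called lower, whichever library was left out, were the oxidation enzymes HADHB and ACAA2 and the carnitine carrier SLC25A20, named after their values were seen.

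Among the PPAR targets, CD36 and FABP4 had the most negative log2 fold changes and were picked after their values were seen. CD36, which encodes a receptor for fatty acids, had an FPKM of 0.00, 0.04 and 0.05 in FT_1, FT_2 and FT_3 and 4.11, 2.90 and 1.96 in WT_1, WT_2 and WT_3 (log2 fold change -6.50, edgeR adjusted p = 0.00456). FABP4, also the leading adipocyte marker, had 0.08, 4.67 and 5.95 in FT and 140.31, 127.86 and 143.41 in WT (log2 fold change -5.10, edgeR adjusted p = 0.0176). Its call was lost without FT_2, WT_1, WT_2 or WT_3 (adjusted p up to 0.0594). The number called lower of the 22 genes depended on single libraries. It was 18 without FT_1 (beside 31.5% of all tested genes), 8 without WT_1 or WT_2 (11.1% and 11.3%), and 9 without WT_3 (12.6%).

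The receptors and partners gave 1 gene called higher, PPRC1, and 0 lower of 7 tested by edgeR, beside 20.1% and 18.9% of all tested genes, with 2 and 0 at an unadjusted p under 0.05 and 1 and 0 by DESeq2. It gave 2 higher and 1 lower without FT_1 (beside 30.6% and 31.5%), and 2 higher without FT_3 (beside 15.6%). PPARG, the PPAR of fat cells, had an FPKM of 2.02 in FT_1 and 0.30 and 0.37 in FT_2 and FT_3, against 1.24, 1.61 and 1.11 in WT_1, WT_2 and WT_3. It was not called with all libraries (edgeR adjusted p = 0.692) but fell without FT_1 (log2 fold change -1.78, adjusted p = 8.84e-05). RXRA, the common partner of PPARs, had 11.50, 17.01 and 16.45 in FT and 14.10, 13.61 and 14.99 in WT, and it was not called with all libraries but was called without FT_1 (log2 fold change 0.40, adjusted p = 6.71e-04). PERM1 was not tested for low counts. PPARG and RXRA were named after their values were seen.

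Of 14 genes of coactivators and corepressors of these receptors, 6 were called higher and 1 lower, beside 20.1% and 18.9% of all tested genes, with a median log2 fold change of 0.51. EP300, an acetyltransferase that PGC-1α recruits, had an FPKM of 14.77, 16.07 and 15.87 in FT and 8.34, 7.46 and 9.05 in WT (log2 fold change 1.07, standard error 0.10, edgeR adjusted p = 0.00122). HDAC3, the deacetylase of the NCOR complexes, fell by 0.32 (edgeR adjusted p = 0.0152), a call that was lost without any 1 library other than FT_1 (adjusted p up to 0.0642). These genes were long, with a median relative length of 364, and limma on log2 CPM called 6 higher and 1 lower with no length trend removed (median 0.50) and 5 higher and 3 lower with it removed (median 0.26). The shares of all tested genes were 20.2% higher and 20.3% lower in the first of these fits and 19.8% and 20.4% in the second. Whether the list differed from other genes was not tested. Without FT_1 the counts were 9 and 2, beside 30.6% and 31.5% of all tested genes. Without FT_2, FT_3, WT_1, WT_2 or WT_3 they were 5 to 7 higher and 0 lower in edgeR, beside at most 15.6% and 14.4% (2 lower at an unadjusted p with all libraries, 1 by DESeq2).

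Of 9 tested genes of energy-sensing kinases, 3 were called higher and 2 lower, beside 20.1% and 18.9% of all tested genes. Scaling by library totals alone, limma on FPKM and the replicate block each gave 1 higher and 2 lower. At most 15.4% of all tested genes were called higher in these fits and 12.9–29.2% lower. STK11, the kinase upstream of AMPK, had 28.96, 30.37 and 29.67 FPKM in FT and 19.47, 19.28 and 18.75 in WT (log2 fold change 0.79, edgeR adjusted p = 0.00118). PRKAG2, a regulatory subunit of AMPK, had 11.57, 9.66 and 9.51 in FT and 36.24, 42.54 and 35.71 in WT (log2 fold change -1.74, standard error 0.11, edgeR adjusted p = 6.12e-04). Both were called whichever library was left out. The others called were PRKAB1 and PRKAB2 (higher) and MAPK14 (lower), named after their values were seen, with an adjusted p of up to 0.138, 0.130 and 0.0896 when 1 library was left out. The number called higher was 5 without FT_1, 1 without FT_2, FT_3, WT_1 or WT_2 and 2 without WT_3, beside 30.6% of all tested genes without FT_1 and at most 15.6% in the other fits. The number called lower was 1 without FT_3, WT_1 or WT_2, beside 14.4%, 11.1% and 11.3% of all tested genes called lower.

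Other transcription factors of respiratory genes gave 3 higher and 1 lower of 9 tested, a share called that is near the 39.0% of all tested genes. MEF2A fell from 25.86–29.80 FPKM in WT to 11.88–14.55 in FT (log2 fold change -0.92, edgeR adjusted p = 0.00234), while its relative MEF2D had 14.41–19.51 in FT and 10.81–12.60 in WT (0.68, adjusted p = 0.0122, and up to 0.0566 without WT_1 or WT_2). ATF2 and MAX, named after their values were seen, were the other genes called higher, and MAX was called without FT_1 but with no other library left out (adjusted p up to 0.0713). The number called higher was 1 without WT_1 or WT_2, and 2 without FT_2, FT_3 or WT_3, beside at most 15.6% of all tested genes in these fits. MYC, chosen after its values were seen, had 95.48 FPKM in FT_1 and 16.07–23.91 in the other 5 libraries (edgeR adjusted p = 0.243).

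Of 14 other tested genes of mitochondrial DNA transcription and replication, 2 were called higher and 6 lower, beside 20.1% and 18.9% of all tested genes, with a median log2 fold change of -0.32. POLRMT, the mitochondrial RNA polymerase itself, had an FPKM of 5.89, 4.12 and 4.19 in FT and 2.98, 2.13 and 2.43 in WT. Its log2 fold change was 1.07 (standard error 0.19, edgeR adjusted p = 0.00825). MGME1, a nuclease of mitochondrial DNA replication, had 2.18, 2.13 and 1.83 in FT and 4.64, 5.13 and 5.05 in WT (log2 fold change -1.11, edgeR adjusted p = 0.00218). TFB1M, the paralog of TFB2M that methylates ribosomal RNA, was lower too (7.96–8.88 against 13.02–14.46 FPKM, log2 fold change -0.58, edgeR adjusted p = 0.00377). The calls of these 3 genes held whichever library was left out, with an adjusted p of at most 0.0394, and TFB1M was named after its values were seen. The counts of this list depended on the library left out: without FT_1 it gave 3 higher and 7 lower, beside 30.6% and 31.5%, and without FT_2, FT_3, WT_1, WT_2 or WT_3 it gave 1 higher and 2 or 3 lower, beside at most 15.6% and 14.4% of all tested genes in these fits. In limma on log2 CPM it gave 2 higher and 6 lower with no length trend removed, beside 20.2% and 20.3% of all tested genes. With the trend removed it gave 1 higher and 4 lower, beside 19.8% and 20.4%.

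UCP2 had few relatives to compare it with. Of 3 other carriers tested, SLC25A4, the ADP/ATP carrier, was called lower (38.92, 35.09 and 34.87 FPKM in FT, 49.78, 48.97 and 47.96 in WT, log2 fold change -0.27, edgeR adjusted p = 0.0261) and 0 higher, beside 18.9% and 20.1% of all tested genes. At an unadjusted p under 0.05 there was 1 lower and 1 higher, and DESeq2 gave 1 and 0. The SLC25A4 call was lost without FT_2, FT_3, WT_1, WT_2 or WT_3 (adjusted p up to 0.101). In limma on log2 CPM, 1 of the 3 was called lower with no length trend removed, beside 20.3% of all tested genes. With the trend removed 0 were called lower, beside 20.4%. UCP1 and UCP3 were not analysed here.

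Seen library by library, the signs of the centred values differed between the regulators. GABPA, ESRRA and UCP2 followed the median of the respiratory chain genes in sign, below their own mean over the 6 libraries in all 3 FT libraries and above it in all 3 WT libraries. TFB2M did so in FT_2 and FT_3, while FT_1 lay at 0.06 on the centred log2 scale. PPARD and PPARGC1B showed the opposite sign in all 6 libraries. PPARGC1A and PPARA had the opposite sign to FT_2 and FT_3 in FT_1, and TFAM and NRF1 had their highest value there.

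**Figure D5:**
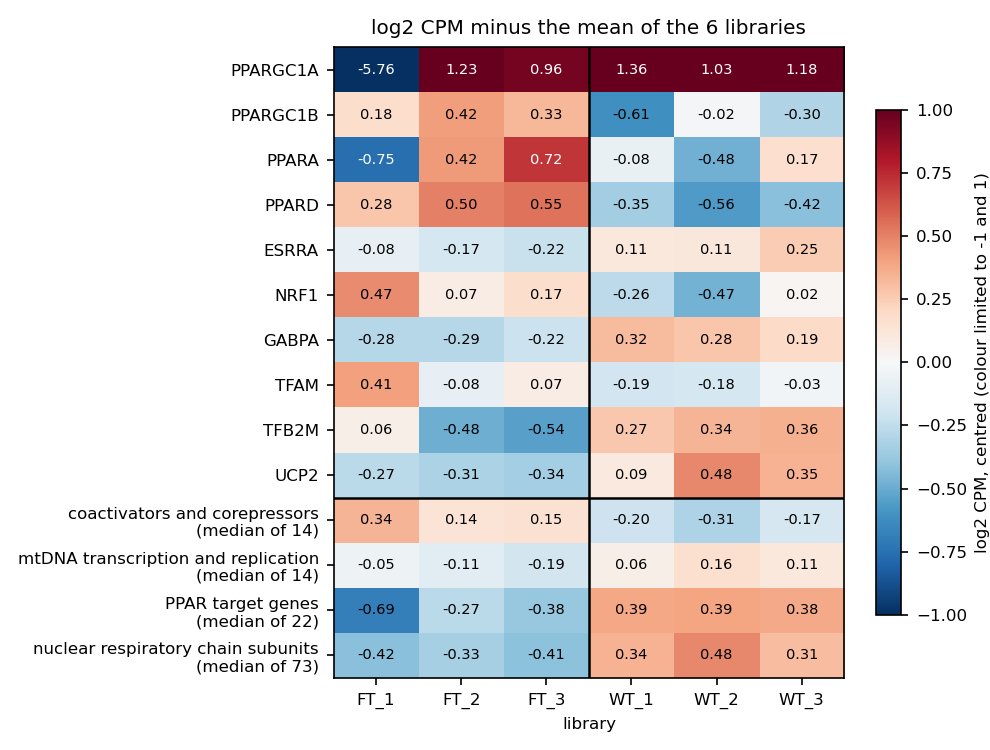
Log2 CPM of the 10 genes, and medians of 4 gene lists, in each library after subtraction of the mean over the 6 libraries; red is above and blue below the mean, and the colour scale stops at -1 and 1. The respiratory chain median was -0.42, -0.33 and -0.41 in FT_1, FT_2 and FT_3, a pattern of sign shared by ESRRA, GABPA and UCP2, and PPARGC1A in FT_1 stood at -5.76.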

How the data were processed

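RNA was measured in 6 libraries, 3 FT and 3 WT. According to the methods, HISAT was the authors' read mapper, transcripts were then merged by Perl scripts, and levels came from StringTie and edgeR. The submitters' processing notes list HISAT2 2.0, StringTie 1.3.0, Bowtie 0.12.2 and a mouse genome build, while the gene identifiers are bovine. The bovine build and the counting rules are not given in the sources used here. The raw count of each gene and its FPKM, scaled by the authors for gene length and library total, were deposited for every library. Counts were compared in R 4.3.3 with edgeR 4.0.16 (TMM scaling, filterByExpr, quasi-likelihood test, Benjamini-Hochberg adjustment over all genes tested). limma 3.58.1 on the FPKM values and DESeq2 1.42.0 on the counts were alternatives, as were other scalings, no filter, the p and fold rule of the methods, a replicate block and leaving out each library. The 10 genes and the lists were chosen with earlier results of these data known. Genes named from a list are the called genes with the smallest p in each direction (1 for each respiratory complex), from marker lists the most abundant gene and genes at 0, and for likeness the 3 nearest genes for the called gene of the 10 with the largest rise and the one with the largest fall. Each library came from another fetus. Genes outside chromosomes 1 to 29 were not analysed here.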

Additional observations from a re-analysis of the deposited data

How the results depend on the processing

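Over 160 alternative values of the log2 fold changes of the 10 genes, 143 kept their direction and their side of the threshold, 15 kept their direction but were no longer called, 2 became called and 0 reversed. A gene not called in the main fit counted as kept when it stayed uncalled. The 15 lost calls were all of ESRRA, TFB2M and UCP2, while PPARD and GABPA lost none. When calls needed a difference beyond 1 on the log2 scale and p under 0.05 before adjustment, as in the methods, 0 of the 10 genes were called higher and 0 lower in edgeR, with 22 respiratory chain genes and 7 PPAR targets called lower, because that rule asks for a fold change that none of the called regulators reached. That rule called 2586 of all 13482 tested genes, both directions together. Leaving out 1 library gave 1–3 of the 10 genes higher and 1–4 lower, 47–60 respiratory chain genes lower and 8–18 PPAR targets lower. At most 30.6% of all tested genes were called higher in these fits and 11.1–31.5% lower. Libraries with the same replicate number came from different fetuses. Their deviations from the group means correlated at -0.001, -0.020 and 0.018, and those of libraries with unlike numbers at -0.026 to 0.028. FT_1 weighs on the FT mean and so on the deviations of all 3 FT libraries. Whether libraries with the same number shared a batch was not tested. With the replicate block, 1 of the 10 genes was called higher and 1, GABPA, lower, with 49 respiratory chain genes and 10 PPAR targets lower, and 3579 genes called in place of 5261. In that fit 13.6% of all tested genes were called higher and 12.9% lower. DESeq2, RLE scaling, no filter, the robust fit, limma on FPKM with a pseudocount of 1 or 0.1 and, added after seeing the data, limma on log2 CPM with or without removal of a length trend each gave 1 higher and 4 lower of the 10. These counts stand beside unlike shares, with 13.9–20.2% of all tested genes called higher and 13.5–29.2% lower. The lowest shares came without the filter (13.9% and 13.5%), and the largest lower share from limma with a pseudocount of 1 (15.0% and 29.2%). Scaling by library totals alone moved the median log2 fold change of all genes from 0.03 to -0.12 and the split of calls from 2714 higher and 2547 lower to 2049 and 3394. Relative to those medians the respiratory chain median was -0.82 under both scalings, PPARD was 0.86 and 0.85 and GABPA -0.56 and -0.56. Counts of 4 for PPARGC1A in FT_1 and 105–158 for PPARGC1B limit how precisely these 2 genes can be compared.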

Other observations

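PPARGC1A was not alone in being far lower in FT_1 than in the other libraries. Counting tested genes with at least 5 CPM in each of the other 5 libraries and a level at least 32-fold lower in the remaining library, a rule chosen after the data were seen, 23 genes were that much lower in FT_1, 1 in FT_2 and 0 in FT_3, WT_1, WT_2 or WT_3. Their counts in FT_1 reached 730 (AQP1, at 4.14 FPKM), so not all were nearly absent. The genes described next were picked after their values were seen. PAX3, a factor of muscle precursors, had an FPKM of 0.12 in FT_1 and 4.81–6.02 in the other 5 libraries. EYA1, a coactivator of organ formation, had 0.00 and 2.03–3.84, and DMRT2, a factor of the somite, had 0.05 and 11.94–29.08. TRIM63, a ubiquitin ligase of striated muscle, was at 0.00 in FT_1 and at 2.78–4.02 in the others. ESRRG, which encodes an ERR receptor that binds PGC-1α, lay below the limit of 5 CPM but had no count in FT_1 and 80–178 counts in the other libraries. Between FT_2 with FT_3 and WT, 11 of the 23 genes were called higher, 8 lower and 4 neither way in edgeR, beside 30.6% of all tested genes higher and 31.5% lower in that fit. PPARGC1A, EYA1, KIAA1211 and TRIM63 were these 4.

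By library values, the genes most like PPARGC1A over the 6 libraries were KIAA1211, PRODH and CDH10, at root mean square differences of 0.18, 0.23 and 0.24 in centred log2 CPM, a search made after the values of PPARGC1A were seen. PRODH, an enzyme of proline breakdown in mitochondria, had an FPKM of 0.00 in FT_1, 2.38 and 1.82 in FT_2 and FT_3 and 1.43–2.25 in WT. Whether the low values in FT_1 come with the makeup of that culture was not tested. The epithelial and mesothelial marker sums of the same library were its highest of the 6, 435.54 and 205.94, and its fibroblast sum of 6935 was the lowest.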
